A study of Mus musculus with 4 samples.

Results

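The genes examined here are the core machinery of the G1 phase of the cell cycle: the D-type cyclins Ccnd1, Ccnd2 and Ccnd3, the E-type cyclin Ccne1, the cyclin-dependent kinases Cdk4 and Cdk6, and the CDK inhibitors Cdkn1a (p21), Cdkn1b (p27), Cdkn2c (p18INK4c) and Cdkn2d (p19INK4d). They were taken by symbol from the annotation of the array, which gave 10 of the 18193 named genes, read by 27 of 45037 probe sets. A probe set was tested when its mean over the arrays lay beyond the 50th percentile of all (7.23 in log2 intensity), which 25 of the 27 passed. Ccnd2 is read by 7 of these probe sets, which share a target and are not independent.

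Levels were measured in LSK and MP cells of mouse bone marrow on 4 Affymetrix arrays, 1 per group: Smo-deficient LSK, WT LSK, Smo-deficient MP and WT MP. LSK cells, which carry c-Kit and Sca-1 and lack lineage markers, hold the stem cells and multipotent progenitors, and MP cells, sorted as negative for lineage markers and Sca-1 but positive for c-Kit, are myeloid progenitors. The Smo-deficient mice were Smo flox/flox, Mx1Cre+ and the WT mice Smo flox/flox, Mx1Cre-, so WT mice carried the floxed alleles too. Smo encodes the hedgehog transducer Smoothened. Mice of both genotypes were given the interferon inducer polyI:C by intraperitoneal injection, 3 doses of 20 ug/g, and marrow was taken 6 weeks later. The Mx1 promoter, which drives the Cre, answers to interferon in many cell types, so deletion need not have been restricted to blood cells. Each genotype was 1 pool of marrow from 4 mice of mixed sex whose age the labels do not give, and both populations were sorted from that pool. The strain labels read C57BL/6x130 for Smo-deficient LSK, C57BL/6x129 for WT LSK, C57BL/6x132 for Smo-deficient MP and C57BL/6x131 for WT MP. The last number differs between LSK and MP of a genotype although both came from 1 pool. It was therefore not read as a strain difference.

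Entry into S phase is controlled in G1. D-type cyclins respond to mitogens and activate CDK4 and CDK6, which phosphorylate the retinoblastoma protein and release E2F factors, and cyclin E with CDK2 completes this step. INK4 proteins bind CDK4 and CDK6 and keep D-type cyclins from activating them, while Cip/Kip proteins such as p21 and p27 inhibit cyclin E-CDK2 complexes. Hematopoietic stem cells are mostly quiescent, and p21, p27 and p18INK4c have each been studied in mice for their part in stem cell quiescence or self-renewal.

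Pearson correlations between arrays, taken over probe sets, were 0.980 to 0.994. On the 2 probe sets past the filter, the targeted gene Smo was at 6.13 and 6.96 in Smo-deficient LSK against 10.81 and 10.02 in WT LSK, and at 6.36 and 7.94 in Smo-deficient MP against 10.40 and 9.72 in WT MP. Among genes of the sort, Kit was bright on all arrays (12.31 to 12.65) and Cd34 read 13.61 and 13.20 in LSK against 12.66 and 12.04 in MP, while Ly6a, which encodes Sca-1, was not analysed here. With 1 array per group, differences between genotypes have no replicate error and were not tested. LSK was compared with MP by limma with the pool as a block, which leaves 1 residual degree of freedom from 2 pairs of arrays before moderation. In these bulk samples, fewer cells of a type and less RNA per cell cannot be told apart.

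The G1 genes did not move as one between LSK and MP. The inhibitor genes Cdkn1a and Cdkn2d and the cyclin genes Ccnd1 and Ccnd2 were higher in LSK, Ccne1 was lower in LSK, and the kinase genes Cdk4 and Cdk6 differed by at most 0.10 on the log2 scale in either direction by the mean of both pools on probe sets past the filter. On the brightest probe set of each gene, 4 of the 10 genes rose in LSK (limma, adjusted p under 0.05; Ccnd1 in 3 of 7 alternatives), where 16.4% of all 11904 genes past the filter did, and 1 fell, where 7.54% did. Over probe sets, 12 of 25 rose and 2 fell, against 15.1% and 7.19% of all 22518. Both LSK arrays lay above both MP arrays for 15 of the 25 probe sets, as they did for 30.4% of all, and below them for 2 of the 25, as for 26.4% of all. Without the pool as a block, 7 of the 25 rose and 1 fell, beside 918 and 140 of all 22518. The calls of both Ccnd1 probe sets, of Cdkn2d, and of 1 probe set each of Ccnd2, Ccnd3 and Ccne1 were then lost. Spiked-in hybridisation controls, 18 probe sets, also averaged higher in LSK than in MP, by 0.51 in the Smo-deficient pool and 0.07 in the WT pool, and poly-A controls, 27 probe sets, by 0.46 and 0.37, and their part in the LSK minus MP values was not tested. The median of LSK minus MP was 0.33 over the 10 genes and 0.00048 over all genes past the filter.

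**Figure D1:**
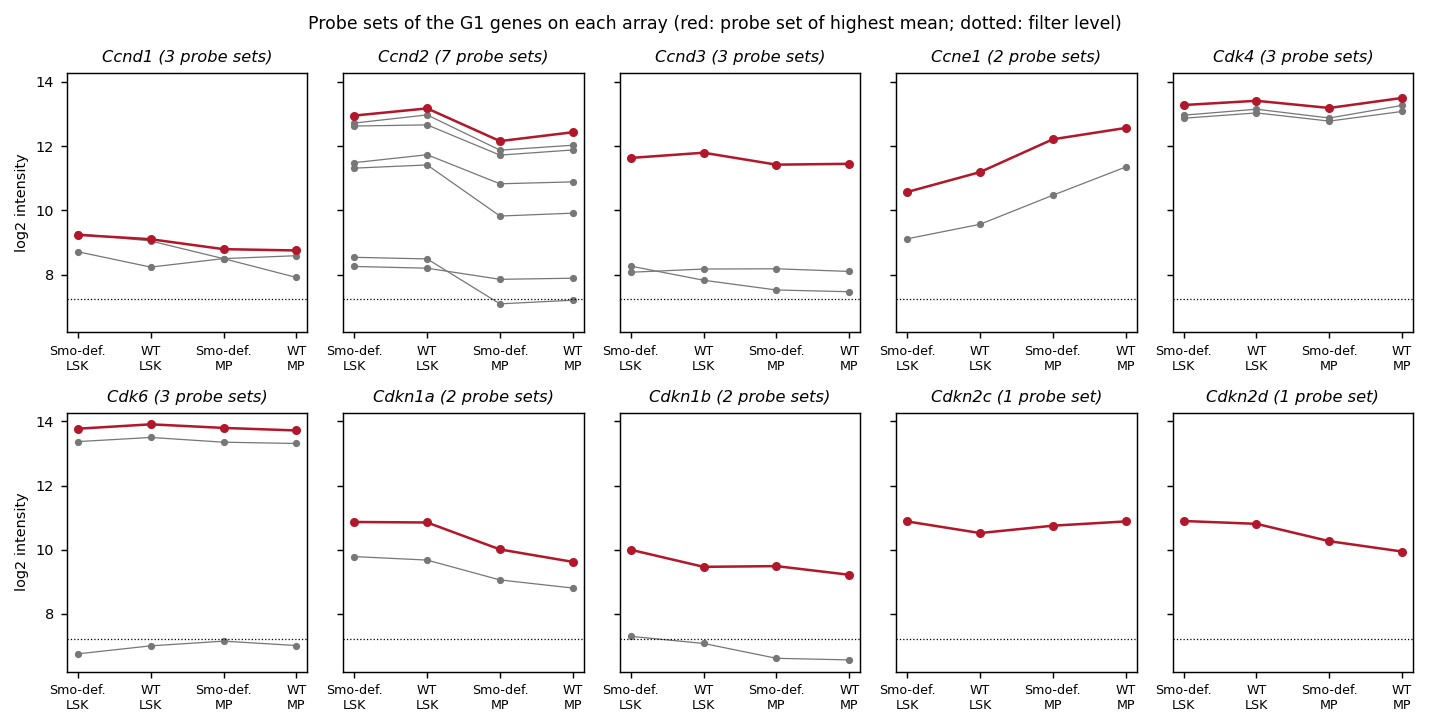
Log2 intensity (y axis) of every probe set of the 10 genes on the 4 arrays (x axis), with the probe set of highest mean in red, the others in grey and the filter level of 7.23 dotted. Ccne1 climbs from the LSK arrays to the MP arrays on both of its probe sets, Ccnd2 and Cdkn1a are higher on the LSK arrays, and the bright probe sets of Cdk4 and Cdk6 are nearly level.

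The gene for cyclin E1 (chr7:38097984-38107490 on GRCm38.p6, as are the positions below), which activates CDK2 at the end of G1, had the widest range of the 10 genes. On probe set 1441910_x_at, Ccne1 read 10.57 in Smo-deficient LSK and 11.19 in WT LSK, against 12.22 in Smo-deficient MP and 12.57 in WT MP. On 1416492_at it read 9.12 in Smo-deficient LSK and 9.57 in WT LSK, against 10.47 in Smo-deficient MP and 11.35 in WT MP. Both probe sets gave the same order, with Smo-deficient LSK lowest and WT MP highest, and the populations did not overlap. The mean difference was -1.51 ± 0.10 on 1441910_x_at (SE, limma adjusted p = 0.00037), so that MP exceeded LSK 2.84-fold, and -1.57 ± 0.14 on 1416492_at (limma adjusted p = 0.000796), a 2.97-fold excess. Within pools the difference on 1441910_x_at was -1.64 in the Smo-deficient pool and -1.37 in the WT pool. On 1416492_at it was -1.36 in the Smo-deficient pool and -1.78 in the WT pool, so the probe sets disagree on which pool parted more. An x in a probe set name marks probes that may also read related transcripts.

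Ccne1 also held the lowest genotype difference among the 25 probe sets in each population. Smo-deficient minus WT was -0.62 in LSK and -0.35 in MP on 1441910_x_at, and -0.45 in LSK and -0.88 in MP on 1416492_at. All of these lie below 0. On 1441910_x_at the MP value was -0.22 after quantile normalization and -0.23 after cyclic loess. On 1416492_at the MP value was then -0.75 and -0.76. Hybridisation controls differed by a mean of -0.32 in MP and 0.11 in LSK between the same arrays, and their part in the Ccne1 values was not tested. As a yardstick, the spread given here and below is the scaled median absolute deviation that probe sets of similar brightness show in that contrast, which was 0.21 in LSK and 0.23 in MP for 1441910_x_at. For 1416492_at the spread was 0.22 in LSK and 0.25 in MP. It comes from single arrays, so it cannot stand in for an error between replicates.

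The genes whose pattern over the 4 arrays was closest to that of Ccne1, by the root mean square difference of centred log2 values among 11903 other genes, were Lmcd1 (0.083), Tnfaip2 (0.10) and Klf1 (0.103), the last an erythroid transcription factor. A fit over 4 arrays from 2 pools is a loose match. Klf1 read 11.61 in Smo-deficient LSK, 12.30 in WT LSK, 13.40 in Smo-deficient MP and 13.88 in WT MP. Klf1 belongs to the erythroid progenitor markers, while the nearer genes Lmcd1 and Tnfaip2 do not. All 9 measured erythroid markers, Klf1 included, fell in LSK relative to MP as Ccne1 did, with a list median of -1.69. Their median genotype difference was -0.69 in LSK and -0.59 in MP, and 2 of the 9 were above 0 in LSK and 0 in MP. Their summed intensity was 33171 in Smo-deficient LSK, 46410 in WT LSK, 79200 in Smo-deficient MP and 109951 in WT MP, and 0 of the 9 were below the filter. The fall in LSK was not particular to erythroid markers: 8 of 9 granulocyte and monocyte progenitor markers and all 5 tested mast cell and basophil markers also fell. The part of erythroid cells in the Ccne1 values was not tested.

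**Figure D2:**
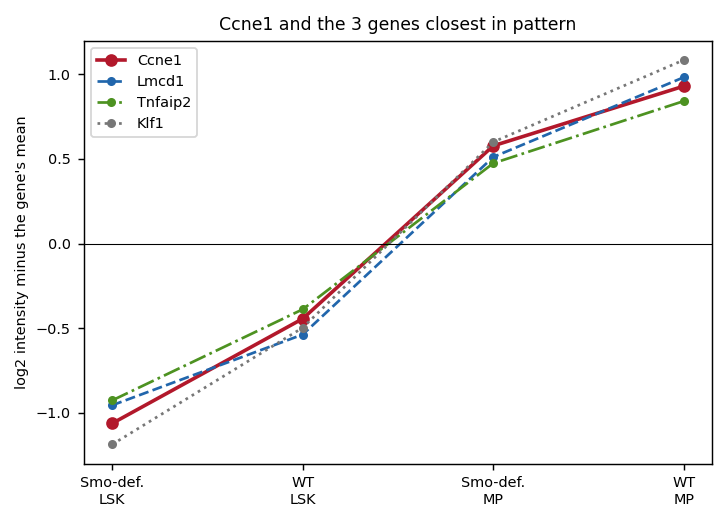
Log2 intensity minus each gene's own mean over the 4 arrays (y axis) for Ccne1 on its brightest probe set and the 3 genes of closest pattern, by array (x axis). All 4 genes climb in the order Smo-deficient LSK, WT LSK, Smo-deficient MP and WT MP.

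The promoter of Ccne1 is shown because this gene had the widest range. Promoter windows come from RefSeq on GRCm38.p6 and run from 250 bases before the annotated start of a gene to 50 from it, on the gene's strand. Of the 10 genes, 8 had a window, with 11 windows in all, since some genes have several starts; Ccnd1 and Ccnd2 had none in the table. Capitals mark the matches, on either strand, to 4 patterns: E2F sites (TTTCCCGC, TTTGGCGC, TTTCGCGC or TTTGCCGC), the E-box CACGTG that Myc proteins bind, the GC box GGGCGG that Sp1 binds, and a pair of CATG cores 6 bases apart (CATGNNNNNNCATG), the spacing in a p53 element. The CATG pair was chosen after the Cdkn1a window had been read. Among 32817 windows of 300 bases, 2.26% held an E2F site, 7.15% an E-box, 35.6% a GC box and 0.71% a CATG pair. The Ccne1 window, at chr7:38107441-38107740 on the minus strand, held 4 GC boxes and 0 of the other patterns; its GC content was 76.0%.
Ccne1: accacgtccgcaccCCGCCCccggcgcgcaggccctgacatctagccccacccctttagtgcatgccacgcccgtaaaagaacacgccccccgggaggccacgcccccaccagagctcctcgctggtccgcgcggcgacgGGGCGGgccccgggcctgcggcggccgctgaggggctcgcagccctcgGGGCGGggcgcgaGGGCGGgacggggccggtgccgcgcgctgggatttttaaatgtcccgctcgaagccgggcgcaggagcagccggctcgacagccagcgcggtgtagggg

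The D-type cyclins differed in how far they parted between the populations. Ccnd2 (chr6:127125162-127152188), the D-type cyclin with the largest difference, read 12.95 in Smo-deficient LSK and 13.18 in WT LSK on its brightest probe set, 1416122_at, against 12.16 in Smo-deficient MP and 12.43 in WT MP. It rose in LSK by 0.77 ± 0.07 (SE, limma adjusted p = 0.000917), 1.70-fold, with 0.79 in the Smo-deficient pool and 0.74 in the WT pool. All 7 Ccnd2 probe sets had both LSK arrays above both MP arrays, and 6 passed, with mean differences between 0.75 and 1.5. On 1448229_s_at the values were 11.32 in Smo-deficient LSK and 11.42 in WT LSK, against 9.83 in Smo-deficient MP and 9.92 in WT MP, a 2.82-fold difference. On 1416123_at they were 8.54 in Smo-deficient LSK and 8.49 in WT LSK, against 7.09 in Smo-deficient MP and 7.20 in WT MP, where the MP values lie under the filter level. The probe set that did not pass, 1416124_at, differed by 0.36 ± 0.11 (SE, limma adjusted p = 0.061). The direction was thus shared by all probe sets and the size was not. Genotype differences of Ccnd2 ran from -0.25 to 0.05 in LSK and from -0.28 to -0.034 in MP over the 7 probe sets. The spreads were 0.16 to 0.23 in LSK and 0.19 to 0.25 in MP. All 7 values were below 0 in MP as deposited, but this shared sign depended on the scaling. Quantile normalization turned the MP value of 1430127_a_at to 0.052 and that of 1448229_s_at to 0.0025. Cyclic loess turned these values to 0.062 and 0.032. The other Ccnd2 probe sets stayed below 0 in MP under both.

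Ccnd1 (chr7:144929931-144939831), the cyclin D1 gene, read 9.24 in Smo-deficient LSK and 9.10 in WT LSK on 1448698_at, against 8.79 in Smo-deficient MP and 8.75 in WT MP. The LSK arrays were higher without overlap, by 0.40 ± 0.11 (SE, limma adjusted p = 0.0468), a call that held in 3 of 7 alternatives. It ended after quantile normalization (limma adjusted p = 0.0982), without a filter (0.0719), with the filter at the 25th percentile (0.0649) and without the block (0.139). On 1417419_at, Ccnd1 read 9.27 in Smo-deficient LSK and 9.05 in WT LSK, against 8.50 in Smo-deficient MP and 8.59 in WT MP, and rose by 0.62 ± 0.13 (SE, limma adjusted p = 0.0162). On 1417420_at it read 8.71 in Smo-deficient LSK and 8.24 in WT LSK, against 8.50 in Smo-deficient MP and 7.91 in WT MP. There the populations overlapped and the difference of 0.27 ± 0.11 did not pass (SE, limma adjusted p = 0.134). This probe set instead followed genotype, with Smo-deficient minus WT at 0.48 in LSK and 0.59 in MP, beside spreads of 0.22 and 0.22. The other Ccnd1 probe sets had genotype differences of 0.14 and 0.22 in LSK and of 0.04 and -0.09 in MP, so the larger genotype difference rests on 1 of 3 probe sets.

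Ccnd3 (chr17:47505051-47599689), the cyclin D3 gene, read 11.64 in Smo-deficient LSK and 11.80 in WT LSK on 1415907_at, against 11.43 in Smo-deficient MP and 11.45 in WT MP. The LSK arrays lay above the MP arrays by 0.28 ± 0.09, which did not pass (SE, limma adjusted p = 0.0827). Of its dimmer probe sets, 1438805_at rose by 0.55 ± 0.13 (SE, limma adjusted p = 0.0278) and 1444323_at differed by -0.02 ± 0.11 (SE, limma adjusted p = 0.931). The Ccnd3 probe sets did not share a direction. Their genotype differences were -0.16, -0.10 and 0.44 in LSK and -0.026, 0.08 and 0.05 in MP, in the order 1415907_at, 1444323_at and 1438805_at.

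**Figure D3:**
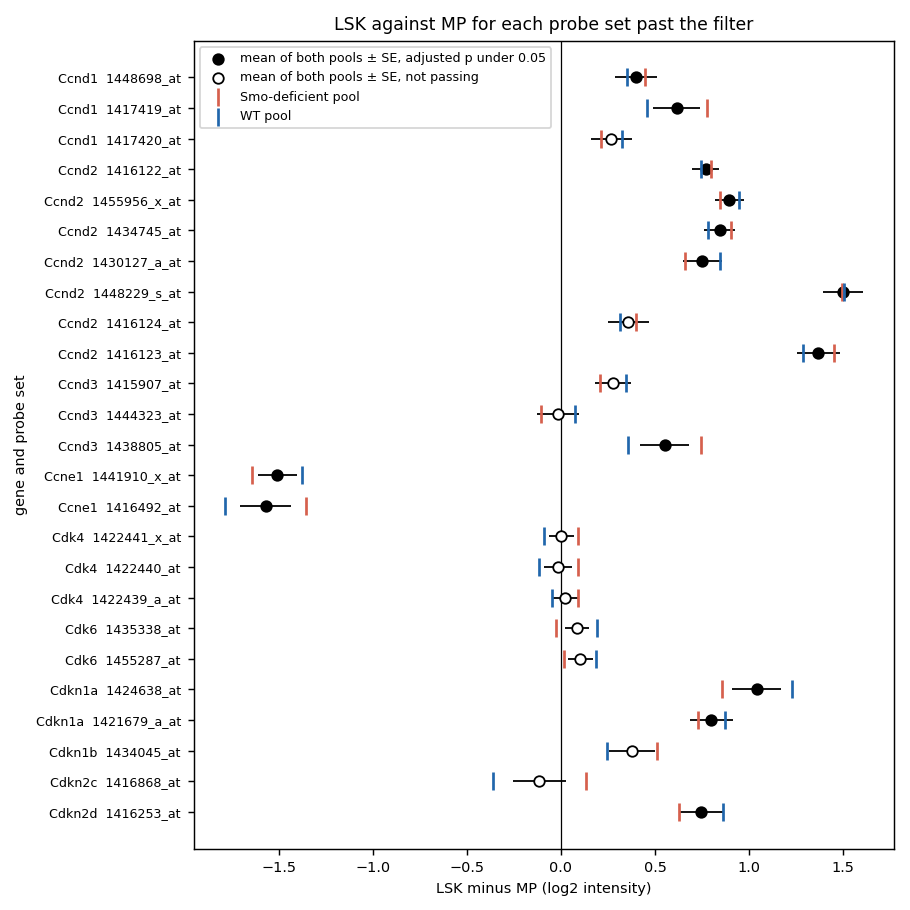
LSK minus MP on the log2 scale (x axis) for the 25 probe sets past the filter (y axis), with the mean of both pools and its limma SE as circles and bars, filled where the adjusted p was under 0.05, and the value in each pool as red (Smo-deficient) and blue (WT) ticks. The 2 Ccne1 probe sets lie left of -1.5, the 7 of Ccnd2 lie between 0.36 and 1.5, and those of Cdk4 and Cdk6 lie near 0.

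The kinase genes were bright and nearly level. Cdk4 (chr10:127063535-127067288) read 13.28 in Smo-deficient LSK and 13.41 in WT LSK on 1422441_x_at, against 13.19 in Smo-deficient MP and 13.50 in WT MP, with a mean difference of 0.0017 ± 0.07 (SE, limma adjusted p = 0.989). The populations overlapped, and LSK minus MP was 0.09 in the Smo-deficient pool and -0.09 in the WT pool. The other Cdk4 probe sets, 1422439_a_at and 1422440_at, differed by 0.02 ± 0.07 and -0.015 ± 0.07, and neither passed (limma). Cdk6 (chr5:3341004-3531008) read 13.77 in Smo-deficient LSK and 13.91 in WT LSK on 1435338_at, against 13.79 in Smo-deficient MP and 13.71 in WT MP. Its difference of 0.08 ± 0.06 did not pass (SE, limma adjusted p = 0.396), nor did the 0.10 ± 0.06 of 1455287_at (SE, limma adjusted p = 0.299). The SE of the 5 kinase probe sets past the filter was small beside the Ccnd2 difference of 0.77. A dim Cdk6 probe set, 1460291_at, lay below the filter with 6.76 and 7.01 in LSK against 7.15 and 7.02 in MP, in the order Smo-deficient and WT.

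Between genotypes, Cdk4 was lower in the Smo-deficient pool on all 3 probe sets. Smo-deficient minus WT ran from -0.19 to -0.13 in LSK and from -0.39 to -0.30 in MP, beside spreads of 0.16 and 0.19. Hybridisation control probe sets, which are added after labelling, differed by -0.32 ± 0.11 in MP and 0.11 ± 0.06 in LSK between the same arrays (SD over 18 probe sets), and their part in the Cdk4 values was not tested. Cdk6 differed by -0.14 and -0.13 in LSK and by 0.08 and 0.04 in MP on 1435338_at and 1455287_at. The Cdk4 window, at chr10:127063285-127063584 on the plus strand, is shown for its number of E-boxes: it held 4 E-boxes and 3 GC boxes, 2 of which overlap, and 0 of the other patterns.
Cdk4: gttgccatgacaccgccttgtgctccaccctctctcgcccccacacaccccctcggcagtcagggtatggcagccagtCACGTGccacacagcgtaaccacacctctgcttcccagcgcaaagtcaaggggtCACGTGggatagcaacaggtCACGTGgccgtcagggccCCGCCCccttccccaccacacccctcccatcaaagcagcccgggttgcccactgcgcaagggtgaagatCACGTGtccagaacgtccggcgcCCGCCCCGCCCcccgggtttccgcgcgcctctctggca

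Among the Cip/Kip inhibitors, Cdkn1a had the larger difference between populations. The p21 gene (chr17:29090979-29100722) read 10.86 in Smo-deficient LSK and 10.85 in WT LSK on 1424638_at, against 10.01 in Smo-deficient MP and 9.62 in WT MP. It rose in LSK by 1.04 ± 0.13 (SE, limma adjusted p = 0.00285), 2.06-fold. On 1421679_a_at it read 9.79 in Smo-deficient LSK and 9.68 in WT LSK, against 9.06 in Smo-deficient MP and 8.81 in WT MP, and rose by 0.80 ± 0.11 (SE, limma adjusted p = 0.00462). Both probe sets put both LSK arrays above both MP arrays. The difference was 0.85 in the Smo-deficient pool and 1.23 in the WT pool on 1424638_at, and 0.73 and 0.87 in these pools on 1421679_a_at. Smo-deficient minus WT was 0.015 in LSK and 0.39 in MP on 1424638_at, and 0.11 in LSK and 0.25 in MP on 1421679_a_at, beside spreads of 0.22 to 0.25. The genotypes thus lay closer together in LSK than in MP on both probe sets, a difference that was not tested.

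Cdkn1a is a target of p53, and RefSeq lists several starts for it on the plus strand. The window of the upstream start, at chr17:29090729-29091028, held the only CATG pair among the 11 windows and 0 of the other patterns. Since the CATG pair was chosen after this window had been read, its match here was known beforehand. The downstream window, at chr17:29093519-29093818, held 2 GC boxes and 0 of the others. A match is a description of the letters, and which start the probe sets read was not analysed here.
Cdkn1a upstream start: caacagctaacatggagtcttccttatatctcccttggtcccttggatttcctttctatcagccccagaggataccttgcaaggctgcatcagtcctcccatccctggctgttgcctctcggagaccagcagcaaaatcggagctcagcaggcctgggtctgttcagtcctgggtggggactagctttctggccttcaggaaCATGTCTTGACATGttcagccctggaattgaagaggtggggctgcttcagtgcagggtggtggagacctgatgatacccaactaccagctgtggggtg
Cdkn1a downstream start: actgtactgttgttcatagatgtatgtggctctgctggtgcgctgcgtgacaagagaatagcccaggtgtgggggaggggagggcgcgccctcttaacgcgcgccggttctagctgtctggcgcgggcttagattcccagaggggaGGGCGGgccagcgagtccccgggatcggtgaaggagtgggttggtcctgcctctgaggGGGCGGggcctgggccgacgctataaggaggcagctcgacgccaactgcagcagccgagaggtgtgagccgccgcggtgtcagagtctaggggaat

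Cdkn1b (chr6:134920401-134925525), the p27 gene, read 9.9996 in Smo-deficient LSK and 9.47 in WT LSK on 1434045_at, against 9.49 in Smo-deficient MP and 9.22 in WT MP. The populations overlapped, since WT LSK lay just below Smo-deficient MP, and the difference of 0.38 ± 0.12 did not pass (SE, limma adjusted p = 0.0714). Genotype differences were 0.53 in LSK and 0.27 in MP, beside spreads of 0.23 and 0.25, and the LSK value was the most positive genotype difference in LSK among the 25 probe sets. The dimmer probe set 1419497_at lay below the filter. In the order Smo-deficient and WT, it read 7.30 and 7.08 in LSK against 6.62 and 6.57 in MP. Its LSK arrays lay above its MP arrays without overlap, by a mean of 0.60. When tested without a filter it passed (limma adjusted p = 0.0154), as it did with the filter at the 25th percentile (limma adjusted p = 0.0143). Its genotype differences were 0.22 in LSK and 0.05 in MP. Both probe sets of Cdkn1b were thus higher in the Smo-deficient pool in both populations.

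The INK4 genes differed from each other. Cdkn2d (chr9:21288459-21291421), whose product p19INK4d inhibits CDK4 and CDK6, read 10.90 in Smo-deficient LSK and 10.81 in WT LSK on 1416253_at, against 10.27 in Smo-deficient MP and 9.94 in WT MP. It rose in LSK by 0.75 ± 0.12 (SE, limma adjusted p = 0.0063), 1.68-fold, and the populations did not overlap. Cdkn2c (chr4:109660876-109666756), which encodes p18INK4c, read 10.88 in Smo-deficient LSK and 10.52 in WT LSK on 1416868_at, against 10.75 in Smo-deficient MP and 10.88 in WT MP. Its populations overlapped, with a mean difference of -0.11 ± 0.14 (SE, limma adjusted p = 0.601). LSK minus MP was 0.13 in the Smo-deficient pool and -0.36 in the WT pool for Cdkn2c, the widest gap between pools among the 25 probe sets, at 0.49. Smo-deficient minus WT was 0.36 in LSK and -0.13 in MP for Cdkn2c, and 0.09 in LSK and 0.32 in MP for Cdkn2d. The Cdkn2d window, at chr9:21291160-21291459 on the minus strand, is shown as that of an inhibitor gene that rose. It held 5 GC boxes and 0 of the other patterns, and 8 of the 11 windows held a GC box, 3 an E-box and 0 an E2F site.
Cdkn2d: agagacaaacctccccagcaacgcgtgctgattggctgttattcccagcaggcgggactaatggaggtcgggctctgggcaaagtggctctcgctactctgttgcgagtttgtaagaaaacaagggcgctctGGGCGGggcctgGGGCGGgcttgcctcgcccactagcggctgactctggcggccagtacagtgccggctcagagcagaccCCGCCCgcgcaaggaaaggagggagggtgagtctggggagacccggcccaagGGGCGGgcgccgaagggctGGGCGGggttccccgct

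No probe set of the G1 genes past the filter reached a 2-fold genotype difference in either population. The count was 0 of 25 in LSK, where 0.822% of all probe sets did, and 0 of 25 in MP, where 0.639% did. At 1.5-fold, 1 of 25 was lower in Smo-deficient LSK (Ccne1 on 1441910_x_at), where 0.884% of all were lower. In LSK 0 of 25 were 1.5-fold higher, where 3.06% of all were. In MP 1 of 25 was 1.5-fold lower (Ccne1 on its other probe set, 1416492_at), where 2.63% of all were. In MP 1 was also 1.5-fold higher (Ccnd1 on 1417420_at), where 2.35% of all were. These counts are of single arrays and were not tested. The median absolute genotype difference of the 25 probe sets was 0.16 in LSK and 0.15 in MP, beside 0.14 and 0.16 for all probe sets past the filter.

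By role within the 10 genes, the inhibitors were the group with mostly positive genotype differences, several of them smaller than the spread. All 3 Cip/Kip probe sets past the filter were above 0 in both populations, from 0.015 to 0.53 in LSK and from 0.25 to 0.39 in MP. Both INK4 probe sets were above 0 in LSK, and 1 of 2 was in MP. Spreads for these inhibitor probe sets were 0.22 to 0.23 in LSK and 0.25 in MP. The other CDK inhibitors measured, all below the filter, had median genotype differences of 0.11 in LSK and 0.0083 in MP, with 2 of 3 above 0 in each. Among them Cdkn2b was at -0.22 in LSK and Cdkn1c at -0.33 in MP. Of the 15 cyclin probe sets, 6 were above 0 in LSK and 4 in MP, and of the 5 kinase probe sets 0 and 2 were. In all, 11 of the 25 were above 0 in LSK, beside 46.7% of all probe sets past the filter, and 10 in MP, beside 40.3%. The LSK and MP comparisons use different arrays but the same pools of mice.

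**Figure D4:**
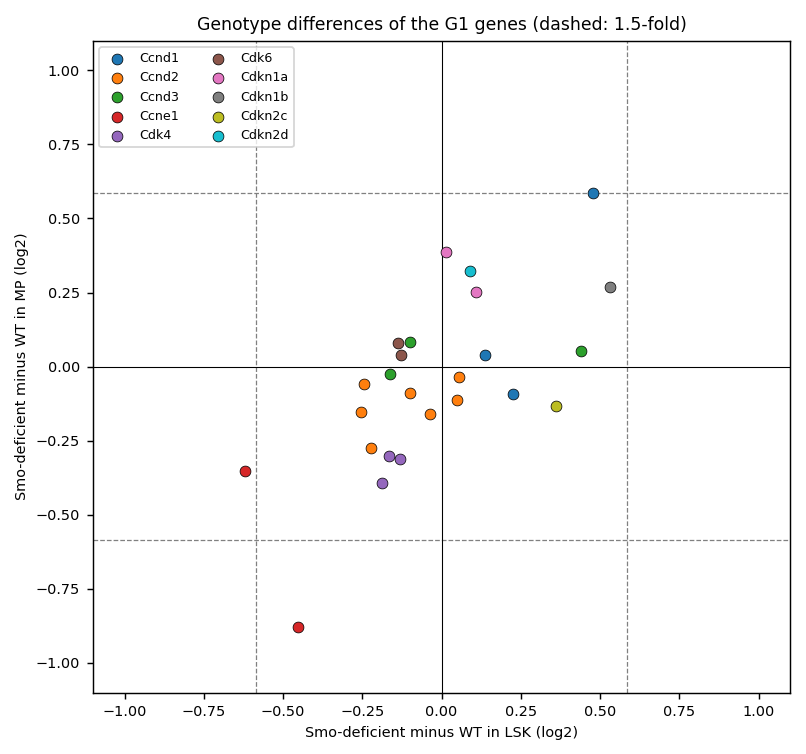
Smo-deficient minus WT on the log2 scale in LSK (x axis) and in MP (y axis) for the 25 probe sets past the filter, coloured by gene, with 1.5-fold dashed. Ccne1 lies at the lower left, Cdk4 below 0 on both axes, and Cdkn1a, Cdkn1b and Cdkn2d above 0 on both.

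Other differences stood between the same pools. Y-linked Eif2s3y was 1.70 higher in Smo-deficient LSK and 1.14 higher in Smo-deficient MP than in WT, and the values for Xist were -0.89 and -0.47, so the pools' male and female shares were unequal. For lymphoid priming markers the median of Smo-deficient minus WT was 1.21 in LSK and 0.63 in MP, with all 9 above 0 in both, and for granulocyte and monocyte progenitor markers it was 0.87 and 0.71, also with all 9 above 0. Mature neutrophil markers had medians of 0.79 and 0.21, with a summed intensity of 132847 in Smo-deficient LSK and 82391 in WT LSK, and of 115601 in Smo-deficient MP and 100866 in WT MP. Megakaryocyte markers had medians of -0.57 and -0.05. Macrophage markers had 0.67 and -0.021, B cell markers 0.58 and 0.26, mast cell and basophil markers -0.04 and 0.31, T and NK cell markers 0.10 and 0.03, and stem cell markers 0.08 and -0.0071. Between LSK and MP, 7 of 8 tested stem cell markers, 5 of 6 lymphoid priming markers and 8 of 9 megakaryocyte markers rose in LSK, while 8 of 9 granulocyte and monocyte progenitor markers and all 5 mast cell and basophil markers fell. Of the mature types, 1 of 7 B cell markers rose, 1 of 8 macrophage markers fell, and the LSK minus MP medians of the neutrophil and T and NK cell lists were -0.017 and 0.03. None of the markers was listed at 0. The part of these differences in the genotype values of the G1 genes was not tested.

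Genes around the G1 machinery were read on the brightest probe set of each, in lists written with earlier results of these data known. The 3 other CDK inhibitors measured were all below the filter, and Cdkn1c, the p57 gene, was the brightest of them in LSK, at 7.78 in Smo-deficient LSK and 7.45 in WT LSK against 6.31 in Smo-deficient MP and 6.64 in WT MP. Among 7 tested cyclins and kinases of late G1 and S phase, 1 passed, lower in LSK, the CDK-activating kinase gene Cdk7 (-0.59, limma adjusted p = 0.0104). Ccne2, the other E-type cyclin, differed by -0.34 without passing (limma adjusted p = 0.0753), and Cdk2, the partner of cyclin E, by 0.07; both were picked after their values were seen.

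Among the 13 pocket protein, E2F and DP genes, 3 rose and 3 fell in LSK, with the atypical E2F gene E2f7 highest at 0.78 and E2f5, an E2F that partners with pocket proteins, lowest at -0.96. Of 13 genes for the turnover of p27, cyclin D and cyclin E, 1 rose and 4 fell, with differences from -0.70 for Cdc34 to 0.58 for Fbxo4. Skp2, which directs p27 to degradation, was among those that fell (-0.40, limma adjusted p = 0.0435). It is named for the lowest genotype difference of this list in LSK, -0.28. Of 19 E2F targets of S phase entry, 1 passed, lower in LSK, the replication licensing gene Cdc6 (-0.72, limma adjusted p = 0.0055). Of 17 G2 and M phase genes, the spindle gene Nusap1 rose (0.33), and the centromere gene Cenpa (-0.75) and the mitotic kinase gene Plk1 (-0.42) fell. Of 11 tested p53 targets, 3 rose and 2 fell. The 13 FoxO, TGF-beta and Myc regulators of G1 genes counted 7 that passed, all higher in LSK, with Mycn at 2.21 and the TGF-beta receptor gene Tgfbr2 at 1.09. Against these counts, 16.4% of all genes past the filter rose and 7.54% fell.

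Between genotypes, the medians among the 8 lists of pathway genes were lowest for the G2 and M phase genes, at -0.26 in LSK and -0.38 in MP, with 0 of 17 above 0 in either population. The E2F targets had medians of -0.16 in LSK and -0.19 in MP, with 1 of 19 above 0 in each, and the turnover genes -0.07 and -0.24. All genes past the filter had medians of -0.016 and -0.054. Between the same arrays, hybridisation controls differed by a mean of 0.11 in LSK and -0.32 in MP, and poly-A controls by -0.16 and -0.25. The part of such shifts in the list medians was not tested, and the list medians were not recomputed after another normalization. The regulator list had medians of 0.30 and 0.10, with all 13 genes above 0 in LSK and 10 in MP. It was led by Gfi1, a repressor that restrains stem cell proliferation, at 1.18 and 0.71. Gfi1 is also among the granulocyte and monocyte progenitor markers, so the same values enter both lists. The 13 p53 targets other than Cdkn1a had medians of 0.18 and -0.059, with 11 above 0 in LSK and 5 in MP. Trp53inp1, a p53 target, was the highest of them at 1.38 in LSK and 0.63 in MP, and it rose by 1.28 in LSK relative to MP (limma adjusted p = 0.0041). Mdm2, another p53 target picked after its values were seen, differed between genotypes by 0.28 in LSK and -0.11 in MP.

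**Figure D5:**
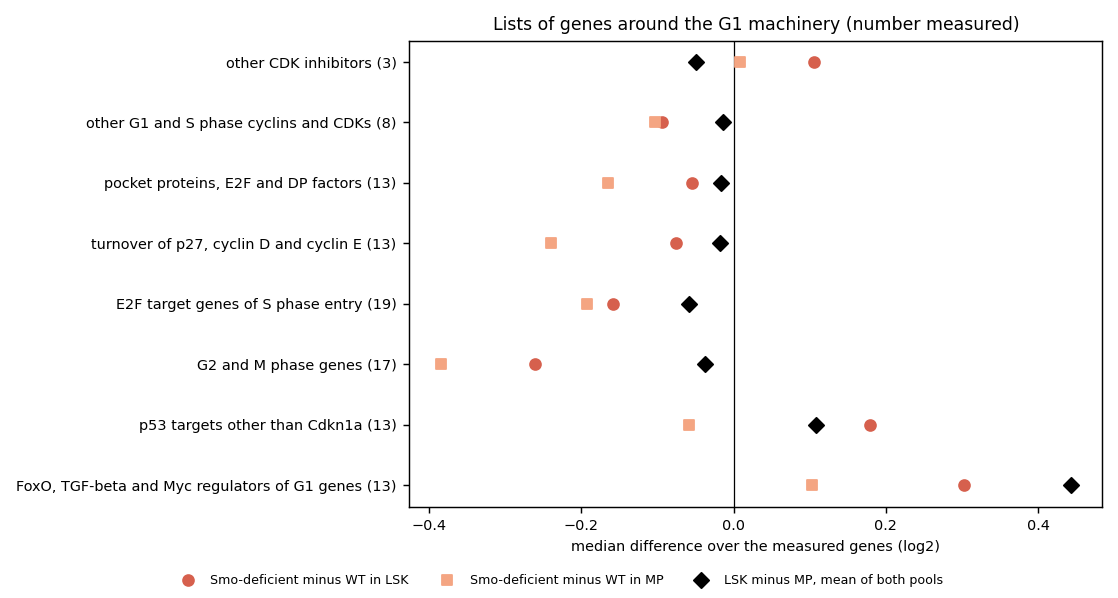
Median difference on the log2 scale (x axis) over the measured genes of each list (y axis, number measured in parentheses), for Smo-deficient minus WT in LSK, the same in MP, and LSK minus MP. Among these 8 lists the G2 and M phase genes have the lowest genotype medians, -0.26 and -0.38, and the FoxO, TGF-beta and Myc regulators the highest in LSK, 0.30.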

How the data were processed

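The authors deposited 1 table of intensity values, which the submitters' processing notes tie to RMA, an Affymetrix method of summarising probe sets. No version of RMA was given in the sources used here; values ran from 12.3 to 44290.5, so they were read as linear, and log2 was taken with no pseudocount. Of 45101 probe sets, 64 controls were set aside. Gene names came from the platform's annotation, where 34945 probe sets had 1 gene, 932 several and 9160 none, and all 10 member genes matched RefSeq by Entrez identifier. The brightest single-gene probe set stood for a gene.

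LSK was tested against MP with limma 3.58.1 in R 4.3.3 (lmFit, two-sided, eBayes with trend), the pool entering as a block, over 22518 probe sets, and p-values were adjusted by Benjamini-Hochberg over all of them. The block rests on the labels, which describe pooling the marrow of each genotype before sorting. It removes the difference between pools, and a genotype effect on LSK minus MP counts as noise. The spread between mice is outside what the p-values measure. Data were simulated for this comparison on 22518 probe sets. On the log2 scale, 100% of 100 changes of 1 and 100% of 100 changes of 2 were recovered. There were 8 false calls among 208. The simulated noise held no genotype effect and had the same SD for all probe sets of similar brightness. Changes smaller than 1, the size of most calls among the G1 probe sets, were not simulated.

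Every probe set of the 10 genes is accounted for. Other genes are named for the highest or lowest difference of a list, for a 2-fold genotype difference, for passing limma with a 2-fold difference, or by closeness of pattern to Ccne1 (the 3 nearest genes); Ccne2, Cdk2 and Mdm2 were chosen after their values were seen. The members and lists were chosen with earlier results of these data known. With 4 arrays, their number limits the precision. The alternatives were 2 normalizations, a pseudocount of 32, other filters, other models, averaged probe sets and a 1.5-fold threshold.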

Additional observations from a re-analysis of the deposited data

How the results depend on the processing

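Each of the 10 genes kept its direction in LSK minus MP under the 8 alternatives, except Cdk4. The Cdk4 value near 0 turned to -0.0090 after quantile normalization and to -0.0026 after cyclic loess. The other filters and the other models leave the LSK minus MP value of a probe set unchanged, so they could not test its direction. Only the normalizations, the pseudocount and the averaged probe sets could. Leaving the pool out of the model (no replicate block) ended the calls of Cdkn2d (limma adjusted p = 0.0651) and Ccnd1 (limma adjusted p = 0.139). It left 918 probe sets higher and 140 lower in LSK, 7 of the G1 probe sets higher and 1 lower, and over the alternatives the adjusted p of Cdkn2d on its probe set ran from 0.0053 to 0.0651. The call of Ccnd1 on its brightest probe set also ended after quantile normalization, without a filter and with the filter at the 25th percentile. Cdkn1b passed in a gene-level fit (limma adjusted p = 0.0369), where fewer features are tested. It has only 1 probe set past the filter, so its difference of 0.38 was the same there. The dimmer Cdkn1b probe set, 1419497_at, passed without a filter and with the filter at the 25th percentile. Quantile normalization gave 2559 probe sets lower in LSK instead of 1618, and the share higher among those passing was 53.8%, and 86.8% without the block, instead of 67.7%.

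For the genotype differences, cyclic loess gave 102 and the pseudocount 41 probe sets 2-fold higher in Smo-deficient MP, against 63. Without a filter 221 were higher in Smo-deficient LSK, against 134. The difference of differences was 2-fold positive for 202 probe sets without a filter and 173 at the 25th percentile, against 102. At 1.5-fold, 689 were higher and 199 lower in LSK and 530 higher and 593 lower in MP, with 1 and 2 of the G1 probe sets among them. Averaging probe sets moved Ccne1 in MP to -0.61, Ccnd3 in LSK to 0.059 and the difference of differences of Ccne1 to 0.080. The causes were not tested. No replicate could be left out, since each group has 1 array.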
